A study of Mus musculus with 14 samples.

Results

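The genes described here are 34 endothelial and angiogenesis genes of the pancreatic islet, measured as RNA on a whole-transcript microarray. They were chosen by name, as genes for endothelial junctions and surface proteins, vessel specialisation, the VEGF and angiopoietin pathways, Notch and ephrin signalling and endothelial transcription factors. The choice was made with earlier results of these data known. Shares of the 34 genes set beside those of all genes are therefore descriptive only. All 34 had a probe set that the platform annotation ties to a single gene symbol, out of 18820 genes tested, and each had 1 such probe set. Islets came from C57BL/6 mice, either wild type (WT) or double knockout for Tlr2 and Tlr4 (DKO), genes for innate immune receptors of bacterial products. Every mouse received a 60% fat diet from 6 weeks of age, for 5 weeks (4 WT and 2 DKO arrays) or for 7 months (4 WT and 4 DKO arrays), and each array holds the islets of 1 mouse by the wording of the labels. Without a lean group, the diet's own effect was not measured, and time on the diet cannot be told apart from age. The labels name no promoter or cell type that limits the knockout, so a change in islet RNA cannot be assigned to a cell type. The labels do not say whether the WT mice were littermates of the DKO mice.

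Islets are densely supplied by fenestrated capillaries, whose endothelial cells exchange glucose and insulin with the beta cells around them. Beta cells secrete VEGF-A, which binds KDR and FLT1 on the endothelium and maintains these capillaries and their fenestrae. Angiopoietin-1 activates the receptor TEK (also called TIE2) and stabilises vessels, angiopoietin-2 is a context-dependent antagonist made by endothelial cells, and the phosphatase PTPRB dampens TEK signalling.

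Values are log2 signals after RMA, so a difference of 1 is a doubling of signal, and a probe set is called dim where its mean lay below 3.95, the median of all probe set values. Of the 34 genes, 4 were dim in every group, namely the tight junction gene Cldn5, the transcription factor gene Sox17, the ligand gene Angpt1 and the nitric oxide synthase gene Nos3. The 6 genes taken as defining markers of endothelium (Pecam1, Cdh5, Kdr, Tie1, Esam and Plvap) were above this level in all groups. Their mean per array ran from 7.29 to 7.53 in WT and from 7.20 to 7.46 in DKO at 5 weeks, and from 7.58 to 7.72 in WT and 7.74 to 7.95 in DKO at 7 months. In the tests below, 0 of these 6 passed between genotypes at either time, where 0.994% of all genes did at 5 weeks and 4.71% at 7 months. With time 1 of the 6 rose in WT and 2 in DKO, where 1.35% and 4.86% of all genes rose. In RNA of whole islets, more endothelial cells and more RNA per endothelial cell cannot be told apart. As a check of the labels, Tlr2 lay at 4.77 to 4.82 in DKO against 6.22 to 6.62 in WT at 5 weeks, and at 5.18 to 5.41 against 6.24 to 6.53 at 7 months. Tlr4 lay below 3.95 on every array and checks nothing. On cell type lists 3 arrays stood apart. WT replicate 2 at 5 weeks had an acinar mean of 6.29 against 8.40 to 8.67 in the rest of its group, DKO replicate 2 at 7 months a beta cell mean of 10.75 against 10.46 to 10.49, and DKO replicate 4 at 7 months a T, NK and B cell mean of 4.75 against 2.84 to 2.92.

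Time on the diet was examined first, as 7 months against 5 weeks within each genotype. In WT islets 6 of the 34 genes rose and 0 fell, and in DKO islets 12 rose and 0 fell (limma, Benjamini-Hochberg adjusted p below 0.05 over all genes). The genes that rose in both were Plvap, Mmrn2, Angpt2, Tek and Ptprb, by 0.58 to 0.71 in WT and 0.88 to 0.96 in DKO. Esm1 passed in WT, and Cdh5, Cd34, Vwf, Efnb2, Dll4, Ets1 and Erg passed in DKO. Over the whole array 2.37% of genes changed with time in WT and 1.35% rose, against 17.6% of these 34 genes. In DKO 7.57% of all genes changed and 4.86% rose, against 35.3% of the 34. The median difference of the 34 genes was 0.23 in WT and 0.39 in DKO, where that of all genes was 0.03 and 0.02. Differences were above 0 for 29 of 34 genes in WT and 28 of 34 in DKO, as the plot of all 34 differences with time shows. Over all genes 56.8% were above 0 in WT and 53.7% in DKO.

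**Figure D1:**
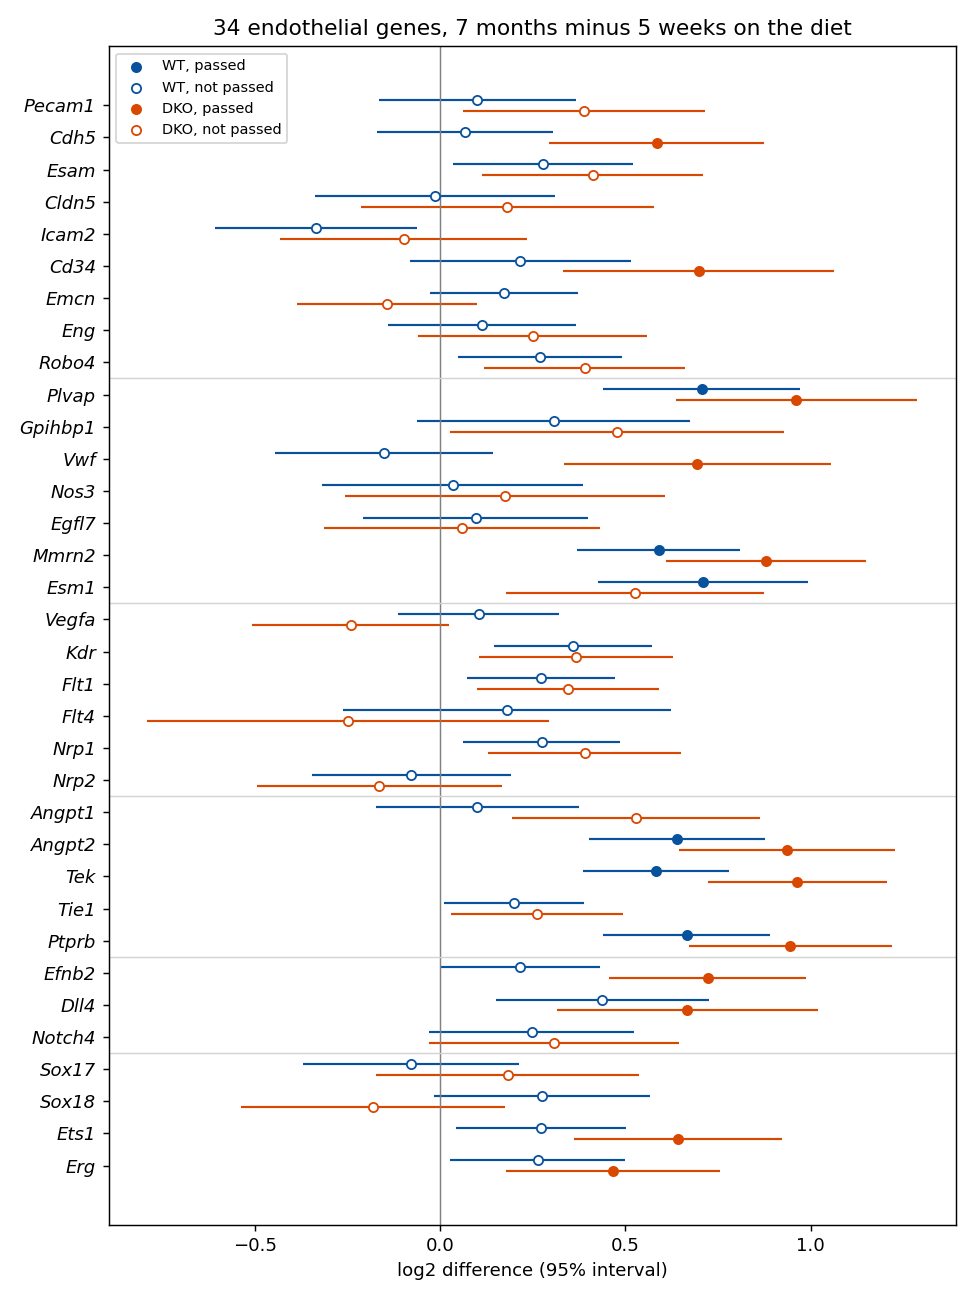
Difference in log2 signal between 7 months and 5 weeks on the diet (horizontal axis) for each of the 34 genes, in WT (blue) and DKO (orange) islets, with the 95% interval of the limma model. Filled circles passed an adjusted p of 0.05: 6 in WT and 12 in DKO, all to the right of 0.

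The angiopoietin and Tie genes held the largest median shift of the gene groups in both genotypes, 0.58 in WT and 0.94 in DKO, and 3 of 5 rose in each. Tek, which encodes the angiopoietin receptor, gave 6.05, 5.71, 5.84 and 5.80 in WT at 5 weeks and 6.47, 6.40, 6.40 and 6.46 at 7 months. In DKO it gave 5.87 and 6.20 at 5 weeks and 6.92, 7.09, 7.05 and 6.95 at 7 months. Every array at 7 months lay above every array at 5 weeks in both genotypes, and the 4 DKO arrays at 7 months were the highest of all 14. Tek rose by 0.58 ± 0.09 (SE) in WT (adjusted p = 0.00367) and by 0.96 ± 0.11 in DKO, a 1.95-fold increase (adjusted p = 0.00018).

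Angpt2, the gene of the TEK ligand that endothelial cells make, gave 5.46, 5.64, 5.48 and 5.39 in WT at 5 weeks and 6.07, 5.91, 6.29 and 6.26 at 7 months. In DKO its values were 5.16 and 5.54, then 6.27, 6.46, 6.25 and 6.15. The times did not overlap in either genotype. The rise was 0.64 ± 0.11 in WT (adjusted p = 0.00698) and 0.94 ± 0.14 in DKO (adjusted p = 0.000905). Ptprb, the gene of the endothelial receptor phosphatase, gave 7.37, 7.12, 7.29 and 7.33 in WT at 5 weeks against 8.15, 7.66, 8.05 and 7.92 at 7 months. Its DKO values were 7.05 and 7.10, then 7.87, 8.15, 8.01 and 8.06. It rose by 0.67 ± 0.11 in WT and 0.95 ± 0.13 in DKO, with no overlap between times (adjusted p = 0.00364 and 0.000557). Tie1, the gene of an orphan partner receptor of TEK, did not pass, at 0.20 ± 0.09 in WT and 0.26 ± 0.11 in DKO (adjusted p = 0.314 and 0.172), although its times did not overlap in either genotype. Angpt1, dim throughout, ran from 2.33 to 2.67 in DKO at 5 weeks and from 2.80 to 3.43 at 7 months, and its difference of 0.53 ± 0.16 missed the threshold (adjusted p = 0.054).

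Vessel specialisation and matrix genes came next in WT, with medians of 0.31 in WT and 0.53 in DKO, and 3 of 7 rose in each. Plvap encodes the protein of the diaphragms that span endothelial fenestrae. It gave 8.70, 8.27, 8.38 and 8.33 in WT at 5 weeks and 9.10, 8.85, 9.27 and 9.28 at 7 months. In DKO it gave 8.14 and 8.57, then 9.28, 9.27, 9.26 and 9.45. The lowest 7-month array lay above the highest 5-week array in both genotypes. The increase was 0.71 ± 0.12 in WT, or 1.63-fold (adjusted p = 0.00738), and 0.96 ± 0.15 in DKO, or 1.95-fold (adjusted p = 0.00162).

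Mmrn2, the gene of an endothelial matrix glycoprotein that binds VEGF-A, gave 6.12, 5.95, 5.72 and 5.85 in WT at 5 weeks and 6.72, 6.39, 6.46 and 6.44 at 7 months. Its DKO values were 5.77 and 5.94, then 6.77, 6.64, 6.66 and 6.87. Here too the times were separate in both genotypes, with rises of 0.59 ± 0.10 in WT and 0.88 ± 0.13 in DKO (adjusted p = 0.00698 and 0.000764). Esm1 encodes endocan, a secreted proteoglycan of endothelial tip cells. Its 5-week WT arrays lay close together at 7.70, 7.61, 7.61 and 7.63, and its 7-month WT arrays at 8.59, 8.41, 8.06 and 8.31. DKO arrays gave 7.25 and 7.45, then 7.82, 8.28, 7.74 and 7.66. The times did not overlap in either genotype, but the 7-month DKO values overlapped those of WT at 5 weeks. Esm1 rose by 0.71 ± 0.13 in WT (adjusted p = 0.0108), and its difference of 0.53 ± 0.16 in DKO did not pass (adjusted p = 0.0649). Vwf, the von Willebrand factor gene, rose in DKO from 4.03 and 3.68 to 4.66, 4.12, 4.67 and 4.74, by 0.69 ± 0.17 (adjusted p = 0.0216). The WT difference of Vwf was -0.15 ± 0.14. Its probe set was dim in all groups but DKO at 7 months, so the size of its change is not exact. Gpihbp1, Egfl7 and Nos3, which encode the anchor of lipoprotein lipase, a secreted angiogenic factor and endothelial nitric oxide synthase, did not pass, with differences from 0.03 to 0.48.

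**Figure D2:**
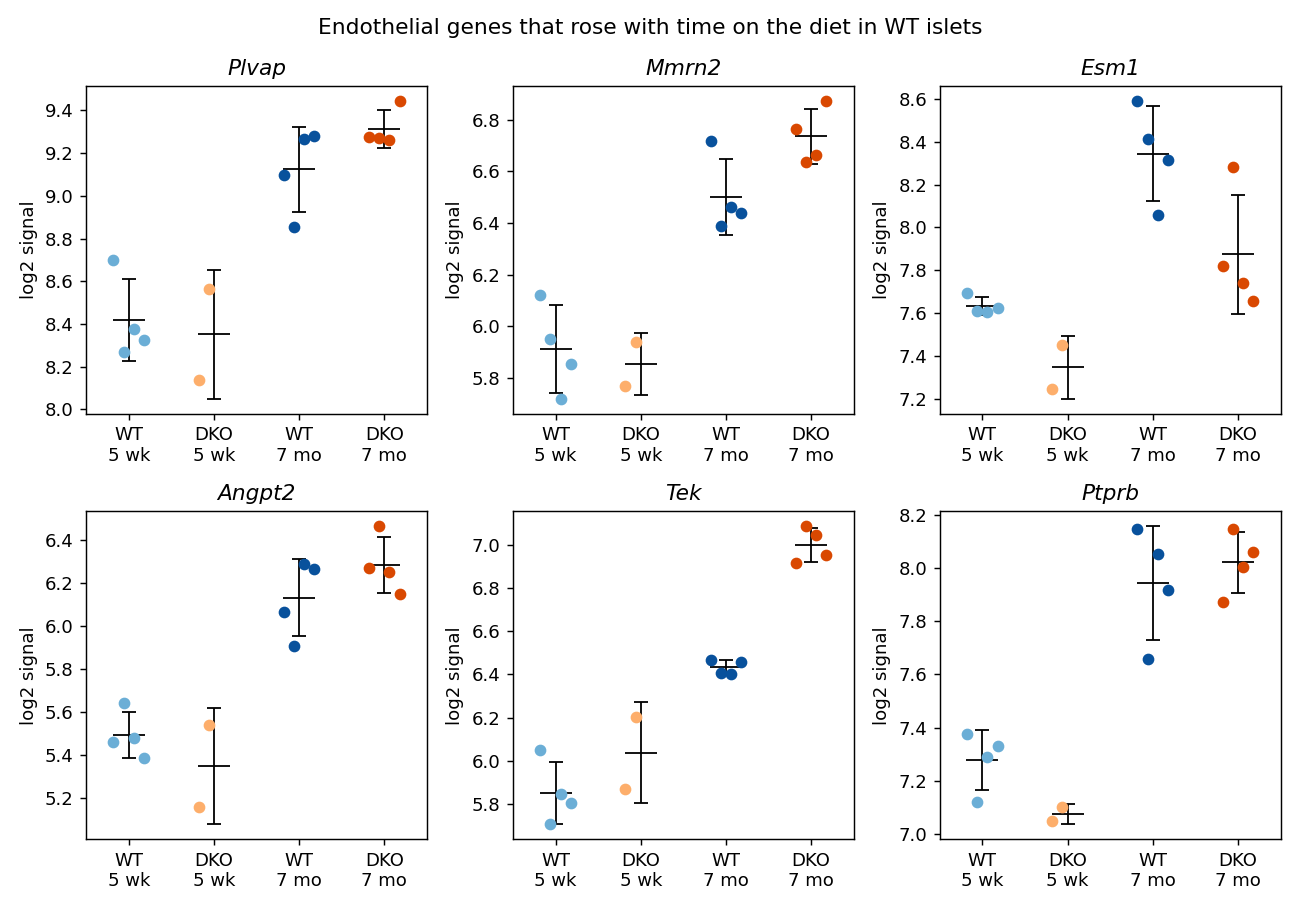
Log2 signal (vertical axis) of the 6 genes that rose with time in WT islets, by genotype and time on the diet. Points are arrays, the long bar is the mean and the short bars are 1 SD; in WT every 7-month point lies above every 5-week point for all 6 genes, and the 7-month DKO points of Tek are the highest of its panel.

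Of these 6 genes, Tek and Esm1 have an entry in the RefSeq promoter table (19 of the 34 genes do), and their sequences are shown because they are the risers in WT for which one was given. The stretches are the 250 bases before the annotated start on the plus strand of GRCm38.p6, chr4:94739039-94739288 for Tek and chr13:113209409-113209658 for Esm1. Capitals mark CAGGAA on either strand (TTCCTG where it lies on the opposite strand), a word that holds the GGAA core bound by ETS transcription factors such as ERG, FLI1 and ETS1.
Tek: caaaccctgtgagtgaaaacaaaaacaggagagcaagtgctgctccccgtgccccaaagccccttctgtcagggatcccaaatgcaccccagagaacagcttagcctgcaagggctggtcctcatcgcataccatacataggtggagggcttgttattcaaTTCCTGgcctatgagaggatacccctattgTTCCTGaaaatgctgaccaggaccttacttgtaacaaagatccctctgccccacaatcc
Esm1: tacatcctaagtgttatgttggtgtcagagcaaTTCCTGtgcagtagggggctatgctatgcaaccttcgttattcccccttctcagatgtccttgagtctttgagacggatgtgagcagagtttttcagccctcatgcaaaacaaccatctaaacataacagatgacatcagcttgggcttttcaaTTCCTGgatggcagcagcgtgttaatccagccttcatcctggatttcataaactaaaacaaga
Each stretch holds 2 matches. The word is common, in 25.7% of the 32851 promoter stretches of the same length in the table and in those of 11 of the 19 genes. The longest run the stretches of Tek and Esm1 share is ttcaattcctgg, 12 bases, which 7 stretches in the table hold on either strand; it was noted after the sequences were compared. These are matches of letters and were not tested for binding.

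Of the VEGF genes 0 of 6 rose or fell with time in either genotype, with medians of 0.23 in WT and 0.09 in DKO, although Kdr (0.42, adjusted p = 0.0462), Flt1 (0.39, 0.0432) and Nrp1 (0.44, 0.0406) passed in DKO with each array centred on its median. Kdr, which encodes the main signalling receptor of VEGF-A, ran from 8.42 to 8.58 in WT at 5 weeks and from 8.67 to 9.00 at 7 months, and from 8.17 to 8.55 and 8.58 to 8.81 in DKO. Its groups did not overlap, but its differences of 0.36 ± 0.10 and 0.37 ± 0.12 missed the threshold (adjusted p = 0.0856 and 0.0865). Flt1, the gene of a VEGF-A receptor that acts largely as a decoy, gave 0.27 ± 0.09 and 0.34 ± 0.11, and the co-receptor gene Nrp1 gave 0.27 ± 0.10 and 0.39 ± 0.12. Flt4 and Nrp2, receptor genes best known from lymphatic vessels, gave 0.18 and -0.08 in WT and -0.25 and -0.16 in DKO. Vegfa itself gave 10.14, 10.18, 10.20 and 10.29 in WT at 5 weeks and 10.31, 10.32, 10.39 and 10.21 at 7 months, a difference of 0.10 ± 0.10 with overlapping groups (adjusted p = 0.708). In DKO its 10.12 and 10.11 at 5 weeks lay within the 7-month values of 9.98, 10.14, 9.77 and 9.60, with a difference of -0.24 ± 0.12 (adjusted p = 0.279).

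Junction and surface genes shifted by a median of 0.11 in WT, where 0 of 9 passed, and 0.39 in DKO, where 2 of 9 rose. Cdh5, the gene of the adherens junction protein VE-cadherin, gave 7.13 and 7.55 in DKO at 5 weeks and 7.77, 7.88, 7.94 and 8.12 at 7 months, a rise of 0.59 ± 0.14 (adjusted p = 0.0173). The WT arrays of Cdh5 overlapped between times, with a difference of 0.07 ± 0.11. Cd34, the gene of a sialomucin of capillary endothelium and of other progenitor and stromal cells, went from 6.19 and 6.77 to 6.98, 7.08, 7.19 and 7.46 in DKO, a rise of 0.70 ± 0.17 (adjusted p = 0.0224). In WT the difference of Cd34 was 0.22 ± 0.14. The remaining members Pecam1, Esam, Cldn5, Icam2, Emcn, Eng and Robo4, which encode adhesion, junction and surface proteins and a TGF-beta co-receptor, lay between -0.34 and 0.28 in WT and between -0.14 and 0.41 in DKO without passing.

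Of the Notch and ephrin genes 2 of 3 rose in DKO, and of the transcription factor genes 2 of 4; in WT 0 passed. Efnb2, the arterial ephrin ligand gene, gave 5.51 and 5.49 at 5 weeks and 5.97, 6.30, 6.34 and 6.27 at 7 months in DKO, a rise of 0.72 ± 0.12 (adjusted p = 0.00277). Dll4, the gene of the Notch ligand of tip and arterial cells, gave 5.55 and 5.67, then 6.51, 6.52, 6.01 and 6.08, a rise of 0.67 ± 0.17 (adjusted p = 0.0237). The times did not overlap for either gene. Ets1 went from 4.00 and 4.17 to 4.58, 4.74, 4.68 and 4.91 (0.64 ± 0.13, adjusted p = 0.00858), and Erg from 4.94 and 4.66 to 5.15, 5.51, 5.13 and 5.30 (0.47 ± 0.13, adjusted p = 0.0491). Both encode ETS factors, and ERG is an endothelial lineage factor. In WT these 4 genes had differences of 0.22 ± 0.10 (Efnb2), 0.44 ± 0.13 (Dll4), 0.27 ± 0.11 (Ets1) and 0.26 ± 0.11 (Erg), and none passed. Notch4, Sox17 and Sox18, genes of an endothelial Notch receptor and of SOX factors, lay between -0.18 and 0.31 in both genotypes.

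A call in 1 genotype and not in the other is not a difference between genotypes. The test of that difference, the interaction of genotype and time, passed for 0 of the 34 genes (limma), where 0.0903% of all genes passed. Its unadjusted p was below 0.05 for 8 of 34 genes, against 10.1% of all genes. The median interaction was 0.18 for the 34 genes and 0.00 for all genes, positive meaning a larger rise in DKO. It was above 0 for 27 of 34 genes, against 50.7% of all genes. The interaction was 0.85 ± 0.22 for Vwf (adjusted p = 0.171), 0.51 ± 0.16 for Efnb2 (adjusted p = 0.266) and 0.38 ± 0.15 for Tek (adjusted p = 0.371). Vwf passed without DKO replicate 2 at 7 months, at 0.99 (adjusted p = 0.0174).

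The calls with time differed in how they held. The 6 rises in WT passed under every alternative run, and so did those of Mmrn2, Angpt2, Tek, Ptprb and Efnb2 in DKO. The DKO count rests on 2 arrays at 5 weeks. Replicate 1 of these lay at a mean of 5.91 over the 34 genes and replicate 2 at 6.07, and without replicate 1 the count fell from 12 to 5, while the share of all genes that changed fell from 7.57% to 2.01%. Without that array Plvap was at 0.75 (adjusted p = 0.0529), Cdh5 at 0.38 (0.284), Cd34 at 0.41 (0.359), Vwf at 0.87 (0.0533), Dll4 at 0.61 (0.205), Ets1 at 0.55 (0.13) and Erg at 0.61 (0.0941). Without DKO replicate 2 at 5 weeks, Vwf (0.52, adjusted p = 0.176), Dll4 (0.73, 0.0687) and Erg (0.33, 0.295) no longer passed, while Kdr (0.56, 0.0333), Nrp1 (0.61, 0.017) and Robo4 (0.59, 0.0297) did. Vwf also lost its call without DKO replicate 1 (0.66, adjusted p = 0.051) or 3 (0.65, 0.055) at 7 months, and Dll4 without replicate 1 (0.59, 0.0571). Angpt1 passed without DKO replicate 2 (0.57, adjusted p = 0.0444) or 3 (0.61, 0.0431) at 7 months, and Esm1 without replicate 4 (0.60, 0.0464). Erg passed in 5 of 26 alternatives, with differences from 0.33 to 0.61, and fell short without any 1 array other than WT replicate 1 or 3 at 7 months.

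**Figure D3:**
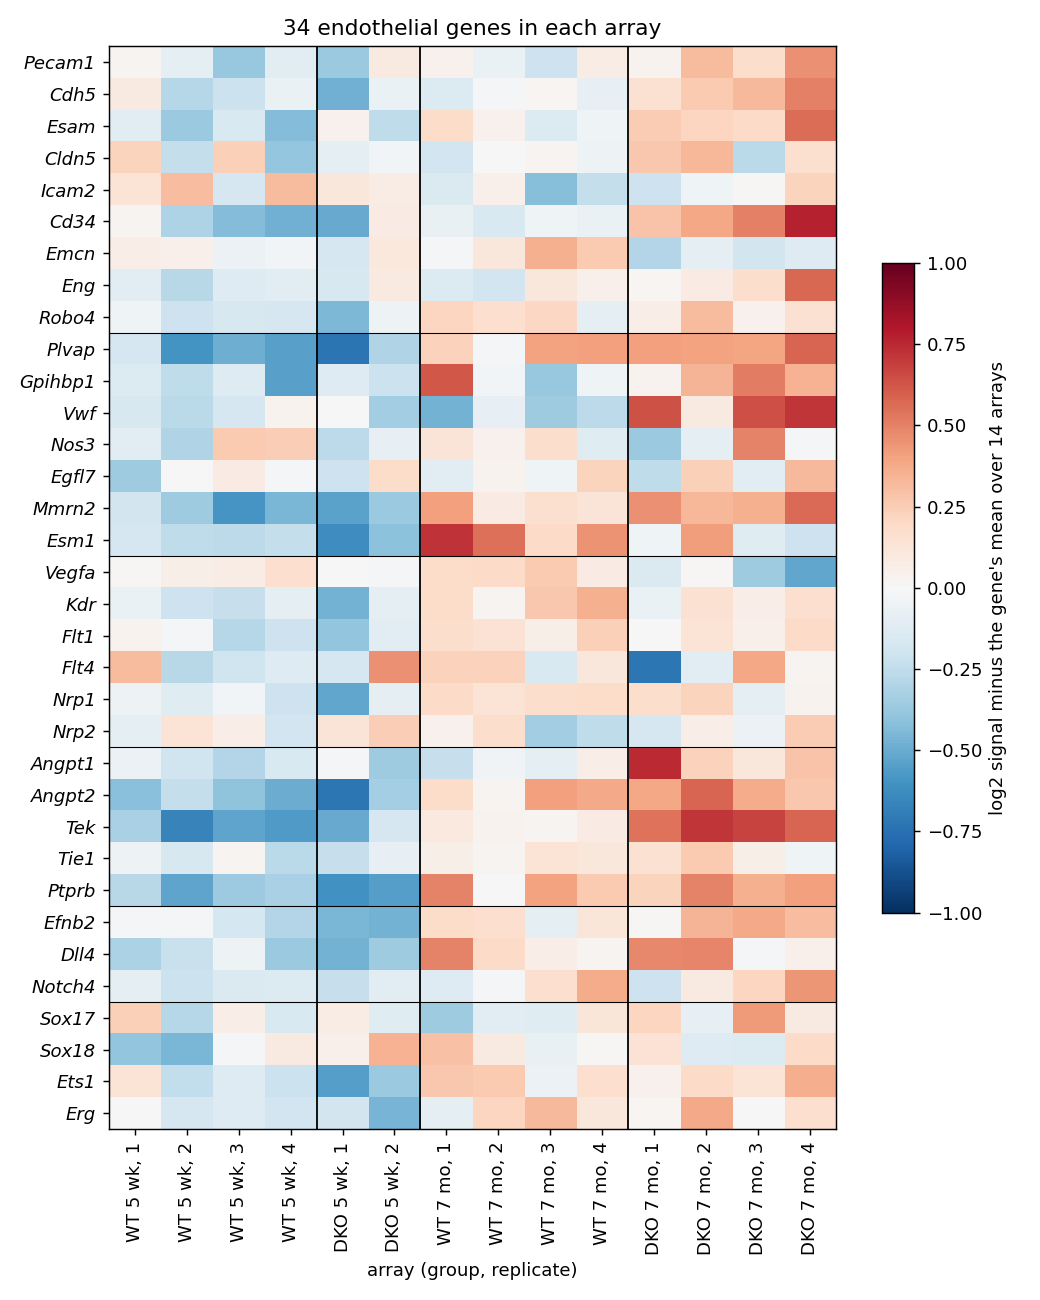
Log2 signal of each of the 34 genes minus that gene's mean over the 14 arrays (colour), for every array (columns, by group and replicate number), with genes in the order of their groups. Plvap, Mmrn2, Angpt2, Tek and Ptprb are below their mean on all 5-week arrays and above it on all 7-month arrays but that of Plvap in WT replicate 2 (8.85, against a mean of 8.87); Vegfa is lowest in DKO replicate 4 at 7 months, where Cd34 is highest.

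Genotype was compared at each time. At 7 months 5 of the 34 genes differed between DKO and WT islets. Cd34, Vwf and Tek were higher in DKO, and Vegfa and Emcn lower. This is 14.7% of the 34 genes, where 4.71% of all genes differed, 2.44% being higher and 2.27% lower in DKO. The median difference was 0.10 for the 34 genes and 0.01 for all genes. Of the 34 differences 25 were above 0, against 53.1% of all genes. With each array centred on its median instead, 4 genes were higher and 0 lower, Cdh5 being the additional one and Vegfa and Emcn no longer passing.

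Vegfa, the ligand gene, lay at 10.31, 10.32, 10.39 and 10.21 in WT and at 9.98, 10.14, 9.77 and 9.60 in DKO at 7 months. Every DKO array was below every WT array, and the DKO arrays spread more widely (SD 0.23 against 0.07, n = 4 each). The difference was -0.43 ± 0.10 (adjusted p = 0.0246), or 0.741 times the WT signal. With arrays centred on their medians it was -0.38 (adjusted p = 0.0539). It also missed the threshold without WT replicate 1 (-0.43, adjusted p = 0.0644), 2 (-0.43, 0.0654) or 3 (-0.40, 0.0738), and without DKO replicate 3 (-0.40, 0.0823) or 4 (-0.34, 0.0643). DKO replicate 2, with the highest Vegfa of its group, was also the array with the beta cell mean of 10.75. The other DKO arrays at 7 months had beta cell means of 10.46 to 10.49, below every WT array (10.65 to 10.72). Over the 8 beta cell genes 0 passed between genotypes, and the part of cell composition in the Vegfa result was not tested. The VEGF receptor genes Kdr, Flt1, Flt4, Nrp1 and Nrp2 gave -0.13, -0.06, -0.21, -0.09 and 0.12, and none passed.

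Tek lay at 6.40 to 6.47 in WT and 6.92 to 7.09 in DKO at 7 months, without overlap, with a difference of 0.57 ± 0.09, or 1.48-fold (adjusted p = 0.0026). Of its partners, Angpt1 gave 0.42 ± 0.13 (adjusted p = 0.0791) with groups that did not overlap, and Angpt2, Tie1 and Ptprb gave 0.15, 0.02 and 0.08 with groups that did. Vwf lay at 3.56, 3.94, 3.67 and 3.76 in WT and 4.66, 4.12, 4.67 and 4.74 in DKO, a difference of 0.81 ± 0.14 (adjusted p = 0.00345) from a dim WT signal. DKO replicate 2 was the array nearest to WT, and without it the difference was 0.96. Tek and Vwf passed under every alternative run.

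Cd34 lay at 6.62, 6.54, 6.65 and 6.62 in WT and at 6.98, 7.08, 7.19 and 7.46 in DKO, with no overlap, a difference of 0.57 ± 0.14 (adjusted p = 0.0314). It passed in 16 of 26 alternatives, and fell short without any 1 of the 4 WT arrays at 7 months (0.55 to 0.58, adjusted p from 0.0627 to 0.0861) and without DKO replicate 3 (0.56, adjusted p = 0.0802) or 4 (0.47, 0.0919). Emcn, the gene of endomucin, a sialomucin of capillary and venous endothelium, lay at 9.22, 9.34, 9.58 and 9.49 in WT and 8.93, 9.13, 9.04 and 9.09 in DKO. Its groups also did not overlap, and the difference was -0.36 ± 0.09 (adjusted p = 0.0424). Emcn passed in 10 of 26 alternatives, with differences from -0.42 to -0.30 and adjusted p values up to 0.123, and was at -0.31 (adjusted p = 0.0728) with arrays centred on their medians. It fell short without WT replicate 2 (-0.38, adjusted p = 0.0731), 3 (-0.30, 0.123) or 4 (-0.33, 0.104) at 7 months, without DKO replicate 1 (-0.32, 0.107), 3 (-0.35, 0.102) or 4 (-0.37, 0.0708), and without any 1 of the 4 WT arrays at 5 weeks (-0.36, 0.0518 to 0.0574). Esm1, by contrast with its rise in WT over time, was at 7.82, 8.28, 7.74 and 7.66 in DKO against 8.59, 8.41, 8.06 and 8.31 in WT, a difference of -0.47 ± 0.13 that missed the threshold (adjusted p = 0.0587). It passed without WT replicate 3 (-0.56, adjusted p = 0.036) or DKO replicate 2 (-0.60, 0.00443).

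**Figure D4:**
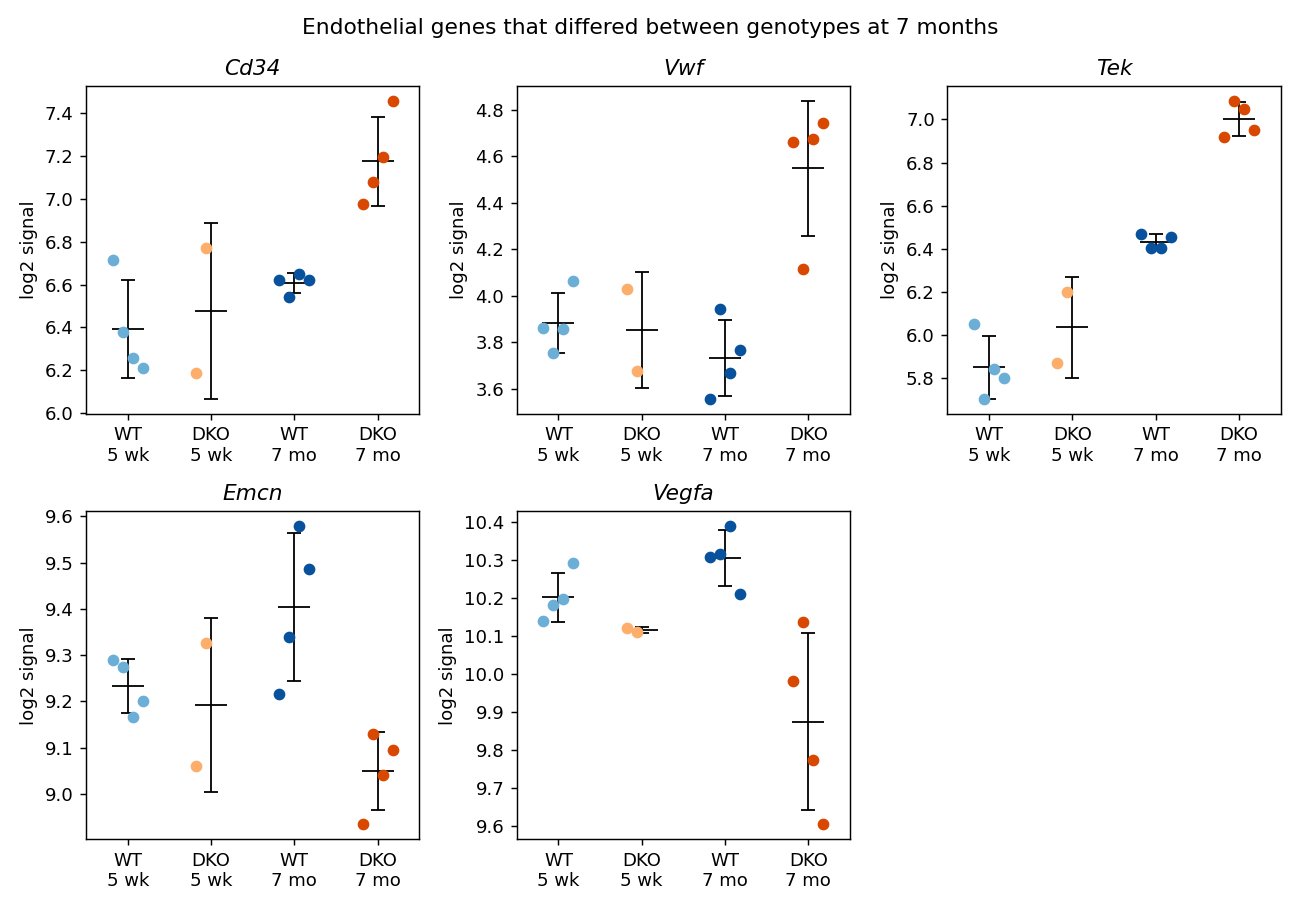
Log2 signal (vertical axis) of the 5 genes that differed between DKO and WT islets at 7 months, by genotype and time. Points are arrays, the long bar is the mean and the short bars are 1 SD; at 7 months the DKO points of Cd34, Vwf and Tek lie above all WT points and those of Emcn and Vegfa below them.

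The other genes did not pass at 7 months. Cdh5 was at 7.77 to 8.12 in DKO against 7.48 to 7.63 in WT without overlap, 0.37 ± 0.11 (adjusted p = 0.0778). Pecam1, the gene of the adhesion protein CD31, gave 0.28 ± 0.12 with overlapping groups (adjusted p = 0.236), and Plvap and Mmrn2 gave 0.19 and 0.23. The Notch and ephrin genes lay between 0.04 and 0.17, and the transcription factor genes between -0.06 and 0.27.

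At 5 weeks 0 of the 34 genes passed between DKO and WT islets (limma), where 0.994% of all genes did. An unadjusted p below 0.05 was found for 3 of the 34 genes, against 12.1% of all genes. The median difference of the 34 genes was -0.05, and 10 of 34 were above 0, against 51.8% of all genes. The lowest were Ets1 at -0.35 ± 0.13 and Efnb2 at -0.34 ± 0.12, both with DKO arrays below all WT arrays, and the highest was Sox18 at 0.39 ± 0.17 (adjusted p = 0.288, 0.264 and 0.352). With 2 DKO arrays, intervals were wide: that of Tek, from -0.06 to 0.43, overlaps its interval at 7 months, from 0.37 to 0.76. The comparisons at 5 weeks and with time in DKO share the DKO 5-week arrays, so a gene low on them enters both.

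**Figure D5:**
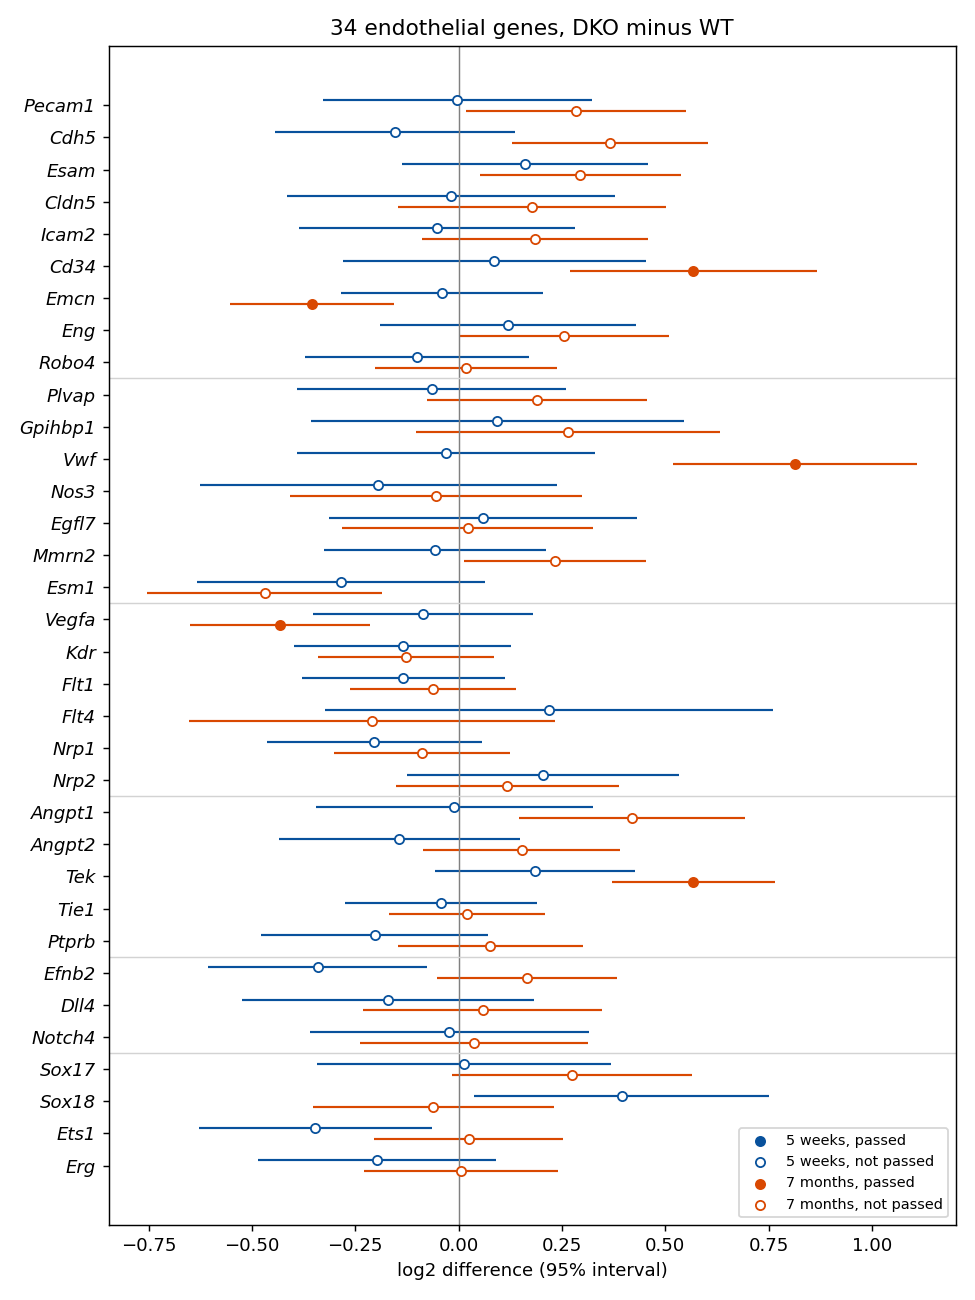
Difference in log2 signal between DKO and WT islets (horizontal axis) for each of the 34 genes, at 5 weeks (blue) and 7 months (orange), with the 95% interval of the limma model. Filled circles passed an adjusted p of 0.05: none at 5 weeks and 5 at 7 months, with Cd34, Vwf and Tek right of 0 and Emcn and Vegfa left of it.

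Of 22 further endothelial markers, 2 rose with time in WT (9.09%, against 2.37% of all genes changed) and 5 in DKO (22.7%, against 7.57%), and 0 fell in either. Clec14a, the gene of an endothelial C-type lectin that binds MMRN2, gave 4.52 to 4.88 in WT at 5 weeks and 5.31 to 5.76 at 7 months (0.71 ± 0.14, adjusted p = 0.0169). In DKO it went from 4.69 and 4.86 to values from 5.74 to 6.26 (1.23 ± 0.18, adjusted p = 0.000767). The adhesion receptor gene Adgrl4 rose in WT by 0.46, and Fli1 (an ETS factor gene), Stab1 (a scavenger receptor gene) and Cav1 (the caveolin gene) rose in DKO by 0.88, 0.86 and 0.84. Between genotypes at 7 months Stab1 (0.70), Tmem100 (0.62, not an exact size since it was dim in every group) and Clec14a (0.53) were higher in DKO. The sialomucin gene Podxl was lower in DKO (-0.38, adjusted p = 0.0484). Stab1 and Cav1 are also expressed outside blood endothelium, Stab1 by macrophages and Cav1 by stromal cells.

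Of 27 further genes of VEGF, Tie, Notch and guidance signalling, 1 rose in WT with time (3.70%, against 2.37% of all genes changed), and 4 rose and 1 fell in DKO (18.5%, against 7.57%). Thbs1, the gene of the angiogenesis inhibitor thrombospondin-1, lay at 6.71 to 7.14 in WT at 5 weeks and 7.58 to 8.11 at 7 months. It rose by 1.03 ± 0.15 in WT (adjusted p = 0.00218) and by 1.61 ± 0.19 in DKO (adjusted p = 0.000174), further than any of the 34 genes. Aplnr, the apelin receptor gene, lay at 2.93 and 3.48 in DKO at 5 weeks, below 3.95, against 4.32 to 4.59 in WT, and rose in DKO to values from 3.86 to 5.34 (1.62 ± 0.30, adjusted p = 0.00461). The Notch target gene Hey1 and the placental growth factor gene Pgf rose in DKO by 1.10 and 0.60. At 7 months Hey1 was higher (0.81) and the Notch ligand gene Jag2 lower (-0.72) in DKO than in WT.

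Hypoxia induces Vegfa and several other genes of this system, so a list of 16 hypoxia response genes was set beside it. In WT 0 of 16 passed with time. In DKO 3 of 16 passed (18.8%, against 7.57% of all genes): Egln3, Pdk1 and Epas1, genes of an oxygen sensor, a metabolic kinase and HIF-2alpha, which rose by 1.49, 0.99 and 0.32. At 7 months Egln3 was higher in DKO (1.34 ± 0.17, adjusted p = 0.000312, a size that is not exact because its WT arrays and its 5-week DKO arrays lay below 3.95), and the other 15 did not pass. Egln3 ran from 3.31 to 3.74 in WT and 4.65 to 5.31 in DKO, while Vegfa was lower in DKO. Of 10 genes of the basement membrane, on which capillary endothelium rests, 0 passed with time in WT and 5 rose in DKO. Over all genes 2.37% changed with time in WT and 4.86% rose in DKO. At 7 months 5 of these 10 genes were higher in DKO, among them Lama5 (0.87), Lamb1 (0.61), Col4a1 (0.55) and Col4a2 (0.53). Over all genes 2.44% were higher in DKO at 7 months. Of 5 leukocyte adhesion genes 0 passed in any comparison.

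Markers of other cell types moved in the same comparisons. Beside the counts below, 0.994% of all genes differed between genotypes at 5 weeks and 4.71% at 7 months. With time 2.37% of all genes changed in WT and 7.57% in DKO. Of 14 genes of pericytes, smooth muscle and stellate cells, 1 was lower and 0 were higher in DKO at 5 weeks. At 7 months 5 of the 14 were higher in DKO, and the mean of the 14 ran from 5.09 to 5.25 in WT and 5.64 to 6.08 in DKO. The stromal genes Dcn, Col3a1, Col1a1 and Pdgfra (dim in every group) led, by 1.96, 1.18, 0.97 and 0.83, and CD34 is carried by some stromal cells too. With time, 1 of the 14 rose (Rgs5, a pericyte gene, 0.39) and 2 fell in WT (Dcn by 1.38 and Pdgfra by 0.53), while 5 rose in DKO, led by Acta2 (1.72) and Abcc9 (1.14). The 14-gene mean in WT was 5.18 to 5.42 at 5 weeks and 5.09 to 5.25 at 7 months, but its genes moved in opposite directions. In WT, Acta2 ran from 6.89 to 7.26 at 5 weeks and from 7.48 to 7.66 at 7 months, and Abcc9 from 5.62 to 5.81 and from 5.94 to 6.36, without overlap but short of the threshold (0.52, adjusted p = 0.074, and 0.37, adjusted p = 0.161). The 2 DKO arrays at 5 weeks had Acta2 at 5.74 and 6.36, below every WT array, so its rise in DKO started from low values. The mean of the 6 pericyte markers in WT ran from 5.57 to 5.66 at 5 weeks and from 5.61 to 5.92 at 7 months, with differences above 0 for 4 of 6 and 1 rise. In DKO that mean ran from 5.35 to 5.62 at 5 weeks and from 5.96 to 6.17 at 7 months, with 6 of 6 above 0 and 3 rises. Between genotypes at 7 months 6 of 6 differences were above 0 and 0 passed. Macrophage genes were higher in DKO at 7 months for 4 of 10, and rose with time for 0 in WT and 4 in DKO. Of 4 platelet and red cell genes 2 were higher in DKO at 7 months: the red cell gene Alas2 (1.38), at 3.40 to 4.33 in WT and 4.17 to 5.94 in DKO, and the platelet gene Ppbp (0.74), dim in every group. The platelet genes Pf4 (0.18) and Itga2b (-0.07) did not pass. Of 4 lymphatic genes 1 was higher in DKO at 5 weeks and 1 lower at 7 months, and with time 0 passed in WT and 2 fell in DKO. The gene lower at 7 months was Prox1 (-0.60), also expressed in islet endocrine cells, and Lyve1 did not pass there. At 5 weeks the lymphatic gene Reln ran from 4.50 to 5.15 in DKO, above its 3.61 to 4.07 in WT. In DKO at 7 months Reln ran from 3.05 to 3.74.

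Acinar cell genes, which mark exocrine tissue carried over in islet isolation, passed for 0 of 10 in every comparison but varied widely. Their mean ran from 6.29 to 8.67 in WT and 8.99 to 9.52 in DKO at 5 weeks, and from 5.29 to 8.94 in WT and 8.01 to 8.61 in DKO at 7 months. All 10 had differences below 0 with time in both genotypes (medians -0.91 in WT and -0.80 in DKO), 8 of them without overlap in DKO. All 10 had differences above 0 in DKO against WT at both times (median 1.16). Overlap was not counted over all genes, so the counts without overlap in this paragraph have no such share beside them. With the acinar mean in the model, the 34 genes gave 6 rises in WT, 10 in DKO and 3 differences between genotypes at 7 months, where Cd34 (0.60, adjusted p = 0.0556) and Emcn (-0.33, 0.117) no longer passed. Alpha and delta cell genes were lower in DKO at 7 months for 4 of 5. With time they fell for 2 of 5 in WT and 4 of 5 in DKO, and for all 5 the times did not overlap in either genotype. Their mean was 9.22 ± 0.08 (SD, n = 4) in WT and 8.99 ± 0.13 (SD, n = 2) in DKO at 5 weeks, and 8.63 ± 0.11 (SD, n = 4) in WT and 7.65 ± 0.14 (SD, n = 4) in DKO at 7 months. With the 3 arrays that stood apart left out, the counts were 6, 8 and 4. The part of cell composition in the other results of the 34 genes was not tested.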

How the data were processed

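The deposited log2 signals come from RMA, by which the authors corrected background, normalized and summarised probe sets, per the submitters' processing notes; neither a version nor a genome build is given in the sources used here. Of 35556 probe sets on the 14 arrays (100 ng of labelled RNA each), 21218 had a single gene symbol, 1881 several and 12457 none. A gene with more than 1 probe set (1386 genes) was represented by its brightest, leaving 18820 genes, of which 18790 were matched by Entrez identifier and 30 by platform symbol. No further normalization was applied.

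Group means were fitted over all 14 arrays in limma 3.58.1 (lmFit, eBayes, default prior; R 4.3.3), so that all groups share 1 estimate of the spread. P-values of the 5 comparisons were adjusted over all genes by Benjamini-Hochberg and judged at 0.05. They reflect the spread between these samples. SEs and intervals are the model's. Median SEs were 0.14 at 5 weeks and 0.11 at 7 months; precision is limited by how few arrays there are. The fit was tested on simulated data. Of 164 further list genes, 148 were measured. The 34 genes and all lists were chosen with earlier results of these data known. From each other list, up to 4 genes of smallest p per comparison are named. Alternatives changed the arrays, prior, filter, probe sets, normalization or covariates, or left out each array in turn. Figures were drawn in matplotlib 3.10.9 under Python 3.11.15.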

Additional observations from a re-analysis of the deposited data

Results flagged for a closer look

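In groups of 4, Dixon's test picked out arrays far from the others of their group; chance alone does so in about 1 group in 20, and 4 of the 102 groups of values tested for the 34 genes were picked. Vwf was 4.12 in DKO replicate 2 at 7 months, where the other arrays lay at 4.66 to 4.74. Plvap was 9.45 in DKO replicate 4 at 7 months, above 9.26 to 9.28. Eng was 8.28 in WT replicate 2 at 5 weeks, below 8.42 to 8.45, and Robo4 was 6.05 in WT replicate 4 at 7 months, below 6.31 to 6.36. Among means over gene groups, the junction and surface genes stood at 6.72 in WT replicate 1 at 5 weeks (others 6.52 to 6.53), the Notch and ephrin genes at 5.30 in WT replicate 4 at 5 weeks (5.42 to 5.45) and the transcription factor genes at 4.87 in DKO replicate 4 at 7 months (4.75 to 4.77).

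Cell type lists stood apart on some arrays too. At 7 months DKO replicate 4 had means of 6.08 for pericytes, smooth muscle and stellate cells (others 5.64 to 5.71) and 4.75 for T, NK and B cells (2.84 to 2.92), and DKO replicate 2 had a beta cell mean of 10.75 (10.46 to 10.49). The lymphatic mean was 5.67 in WT replicate 2 at 7 months (5.20 to 5.23), and the acinar mean was 6.29 in WT replicate 2 at 5 weeks (8.40 to 8.67).

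The genotypes differed in their change with time, by the interaction test of limma, for 2 endocrine list genes: Sst at -0.82 (adjusted p = 0.026) and Rbp4 at -1.73 (adjusted p = 0.0172).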

How the results depend on the processing

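There were 14 alternatives that left out an array, 11 others and 1 chosen after seeing the data (the 3 arrays that stood apart left out). Over these, 0 called values of the 34 genes or of the other genes named by rule changed sign. Of 7720 values with no call, counted over the same genes, 165 did. The count of genes that rose with time in WT was 6 or 7 throughout. With time in DKO the count of 12 was 6 when only the arrays compared were fitted, 19 when arrays were centred on their medians, 15 with a trended robust prior, 16 with dim genes left out and 5 to 12 when an array was left out. Between genotypes at 7 months the count of 5 was 3 with only the arrays compared, 2 with all probe sets tested, 3 with the acinar mean as a covariate, 7 with a trended robust prior or with dim genes left out, 6 with array weights or repeated quantile normalization, and 2 to 6 with an array left out: 2 without WT replicate 2, DKO replicate 3 or DKO replicate 4, and 3 without WT replicate 1, 3 or 4. The interaction count of 0 was 0 to 1 with an array left out and 1 without the 3 arrays that stood apart, Vwf being the gene. Fewer arrays were fitted in several of these settings; beyond that, the cause was not tested. At 5 weeks the count was 0 throughout. Replicate numbers are shared by groups, but same-numbered arrays correlated at only -0.163 to 0.158 in their deviations from group means, so they were not treated as pairs; with a replicate block the counts were 6 in WT and 9 in DKO with time and 4 between genotypes at 7 months. Arrays give no read depth, and the 4 genes that were dim in every group may hide changes.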
